A study of Mus musculus with 4 samples.

Results

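Chemokines are small secreted proteins that steer the migration of leukocytes, and they act through receptors on the surface of the receiving cells. The family was taken as every gene whose symbol names a CC ligand (Ccl followed by a digit), a CXC ligand (Cxcl), a CC or CXC receptor (Ccr, Cxcr), an atypical receptor (Ackr), or Cx3cl1, Cx3cr1, Xcl1 or Xcr1. This rule used symbols and no measured value. It found 63 members among the 44628 genes listed in the files, namely 27 CC ligands, 13 CXC ligands, 2 ligands of the CX3C and XC types, 17 signalling receptors and 4 atypical receptors.

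The study profiled single nuclei from whole mouse hearts, to ask how the cells of the heart change early after loss of plakophilin-2 (Pkp2), a desmosomal protein whose gene is mutated in arrhythmogenic cardiomyopathy. There were 4 libraries, 2 per group, each made from the pooled hearts of 2 mice, 1 male and 1 female. All mice were 8 weeks old by their labels, had received tamoxifen, and were taken 2 weeks after it. The control libraries are titled MCM cre/+ with the genotype wt, and the knockout libraries are titled PKP2fl/fl MCM cre/+ with the genotype pkp2 cko, written cKO below. MCM is a name commonly given in heart research to a tamoxifen-activated Cre fused to estrogen receptor parts; the labels do not name its promoter. By its title every library carries that Cre and received tamoxifen, and the cell type label reads cardiomyocyte although all the major cell types of the heart were present. The counts did not check the knockout: in cardiomyocyte-like nuclei Pkp2 stood at 555 and 538 CPM (the gene's UMIs scaled to the summed UMIs of the class in that library) in control 1 and 2 and at 627 and 594 CPM in cKO 1 and 2. These counts cover the whole gene, so they cannot show whether its floxed exons were removed. Esr1, the estrogen receptor gene, stood at 75.0 and 62.4 CPM in the same nuclei of control 1 and 2 and at 3649 and 3347 CPM in cKO 1 and 2. The groups thus also differed in Esr1 counts, and effects of the Cre transgene and of Pkp2 loss cannot be told apart. Every direction given below is between the libraries labelled cKO and those labelled control.

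As background, inducible ligands such as Ccl2 and Ccl7 call monocytes that carry the receptor Ccr2 into injured heart, while the CXC ligands Cxcl1, Cxcl2 and Cxcl5 act on the neutrophil receptor Cxcr2. Other members are homeostatic: Cxcl12 from endothelium and stroma holds Cxcr4-positive cells in place, and Ccl21 from lymphatic vessels guides Ccr7-positive cells toward lymph nodes. Atypical receptors (Ackr) bind chemokines without classical G protein signalling and take them up or carry them across cells.

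After removal of barcodes with few genes, many mitochondrial UMIs (unique molecular identifiers, counted once per captured RNA molecule) or a doublet score, 2805 nuclei were kept in control 1, 6024 in control 2, 3642 in cKO 1 and 6313 in cKO 2, with a median of 1856 to 2121 UMIs each. The mitochondrial limit of 5% removed 48.8 to 53.8% of the barcodes. No nucleus label was shared between libraries. The nuclei were clustered without the family members, and clusters were named from marker genes; each class name below means nuclei that carry those markers (cardiomyocyte-like, macrophage-like and so on). In the macrophage class all 13 macrophage markers had UMIs, at a summed 7251 to 10783 CPM, against 77.3 to 96.4 CPM in the cardiomyocyte class. Cardiomyocytes made up 51.9 and 42.6% of kept nuclei in control 1 and 2 and 32.6 and 24.8% in cKO 1 and 2, and macrophages 8.98, 9.68, 15.7 and 12.8% in the same order. Library cKO 2 stood apart: a fibroblast cluster led by Il6 and Ptx3 held 89 of its nuclei against 0, 1 and 5 in control 1, control 2 and cKO 1, and an endothelial cluster led by Selp and Plaur held 201 against 0, 1 and 6. Its doublet caller also marked 12.9% of the barcodes that had passed the filters. In the other libraries it marked 0 to 0.031%, and a preset 6% was removed. Called fibroblast members are given below with and without the first cluster; for the second, the count of called endothelial members is given without it, and Cxcl9 and Cxcl10 by their UMIs inside it.

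Of the 63 members, 59 had at least 1 UMI in the kept nuclei and 35 had 30 or more. The 4 without a UMI were Ccl21b, Ccl27b, Cxcl13 and Cxcr1. The other 24 had 1 to 29 UMIs over all 4 libraries: Ccr7 29, Ccl28 and Cxcr6 28 each, Ccl1 and Cxcl17 19 each, Ccr6 16, Xcr1 11, Ccl26 10, and between 1 and 8 for Ccl17, Ccl19, Ccl19-ps2, Ccl20, Ccl21d, Ccl21e, Ccl21f, Ccl22, Ccr3, Ccr4, Ccr10, Cxcl3, Cxcl11, Cxcl15, Cxcr3 and Xcl1. At this depth no level can be compared for those 24.

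Most members had 1 main source in counts pooled over libraries, which weigh the deeper libraries and those where a gene is high, and the heat map of levels by class shows 3 blocks. Macrophages gave most UMIs of the monocyte receptor Ccr2 (84.4% of its UMIs over all kept nuclei), of the inflammatory receptor Ccr1 (85.5%), of the fractalkine receptor Cx3cr1 (72.6%), and of the CC ligands Ccl3 (80.8%), Ccl4 (82.9%), Ccl6 (83.6%), Ccl9 (80.1%), Ccl12 (83.7%), Ccl24 (77.8%) and Ccl8 (69.5%). By library, macrophages gave 43.7 and 51.0% of Ccr2 in control 1 and 2 and 91.8 and 89.1% in cKO 1 and 2. They gave 0 and 2 of the 4 and 7 Ccl3 UMIs of control 1 and 2. Fibroblasts gave 80.4% of Cxcl5, 73.3% of Cxcl14, 70.2% of the scavenging receptor Ackr4, 67.1% of Cxcl1 and 62.8% of the eosinophil attractant Ccl11. The share for Cxcl1 rested on cKO 2 (76.5%), as it was 36.8, 34.0 and 39.4% in control 1, control 2 and cKO 1. Endothelial nuclei gave 71.4% of Cxcl12 and 71.3% of Cxcl9, a ligand induced by interferon gamma, and lymphatic endothelial nuclei, though at most 2.09% of any library, gave 76.2% of Ccl21a. The monocyte attractants Ccl2 and Ccl7 had 2 sources, with 62.0 and 65.0% from macrophages and 23.8 and 21.3% from fibroblasts in the pooled counts. Their order differed by library: in control 2 fibroblasts gave 57.5% of Ccl2 and macrophages 26.2%. For Ccl7, fibroblasts gave 28.1 and 43.6% in control 1 and 2, against 25 and 32.7% from macrophages, while in cKO 1 and 2 macrophages gave 74.8 and 68.3%. Ackr3, which binds Cxcl12, was spread over cardiomyocytes (58.5%), endothelium (16.6%) and fibroblasts (16.6%). Some members overlap other genes, so their counts may hold reads of those: the span of Cx3cr1 holds Xirp1, a cardiomyocyte gene, and 19.1% of Cx3cr1 UMIs came from cardiomyocytes; Cxcl16 overlaps Zmynd15, Cxcr5 overlaps Bcl9l and Ackr1 overlaps Cadm3. Classes were then ranked by CPM among cardiomyocytes, endothelium, fibroblasts, macrophages, mural and lymphatic nuclei. The smaller lymphocyte, epicardial, glial and unnamed groups were left out of this ranking. Among the ranked classes, 20 of the 35 members with 30 or more UMIs had the same highest class in all 4 libraries. Some members stood higher in a group left out, on few UMIs, than in the highest ranked class. Among them were Ccr2 in lymphocytes of control 1 and control 2, and Cxcr4 and Cxcl9 in lymphocytes of cKO 1. Ackr4, Ccl7, Cxcl1 and Cxcl14 did so in unnamed nuclei of control 1.

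**Figure D1:**
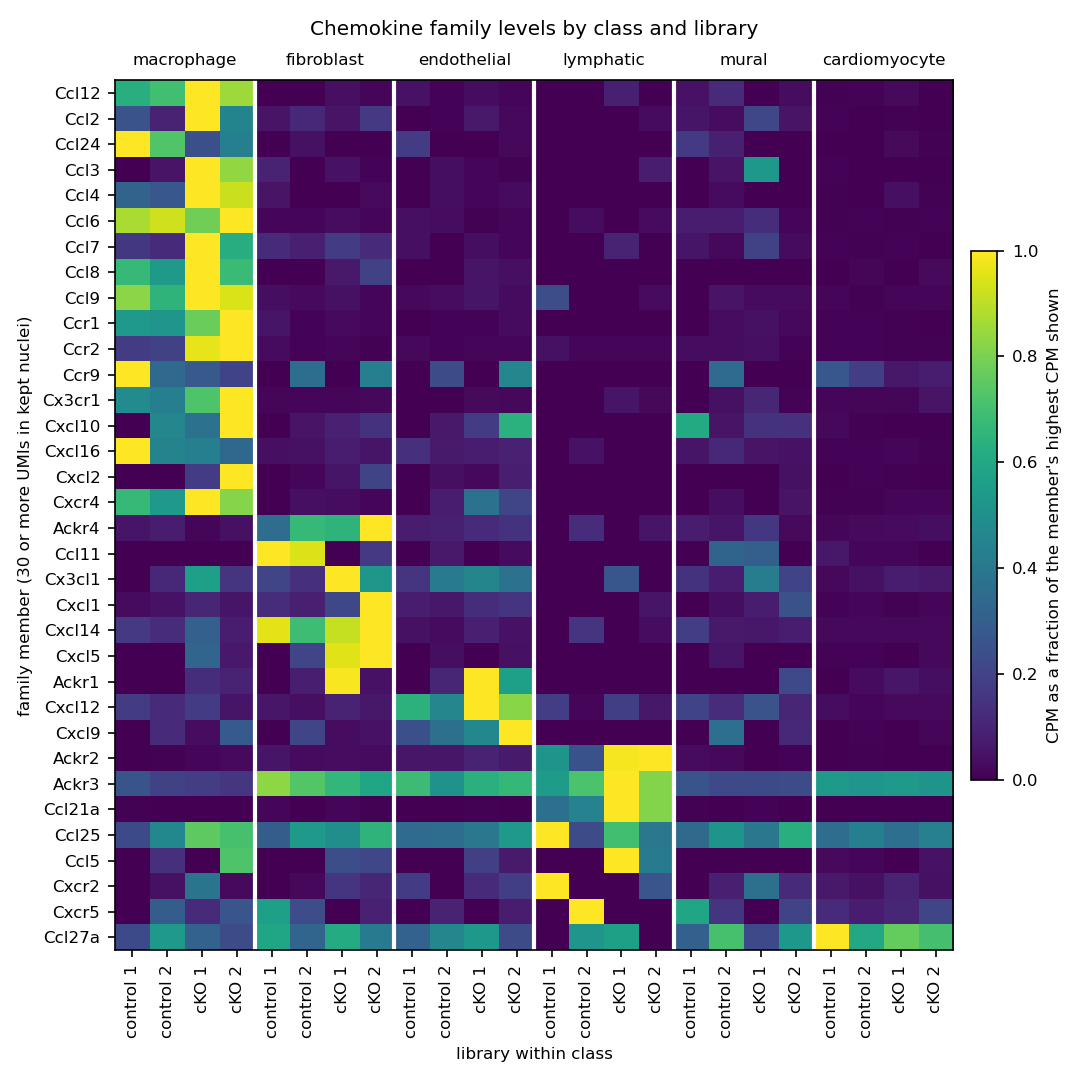
Levels of 34 of the 35 members with 30 or more UMIs (rows) in 6 classes, with the 4 libraries of each class as columns; color gives CPM as a fraction of that member's own highest CPM on the map. The macrophage block (Ccl12 to Cxcr4), the fibroblast block (Ackr4 to Cxcl5) and the rows of Cxcl12 and Ccl21a stand out, and within the macrophage block Ccr2, Ccl2, Ccl3 and Ccl7 are brightest in the cKO columns.

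Among signalling receptors outside macrophages, Ccr2 (55 UMIs) and Cxcr6 (11 UMIs) were found in a small T-cell-like cluster, and Cxcr5, the follicle-homing receptor, had 18 UMIs in a B-cell-like cluster. Cxcr2, through which Cxcl1, Cxcl2 and Cxcl5 act, had 100 UMIs over all nuclei, spread over the classes with no main source. Cxcr4, the signalling receptor of Cxcl12, had 61.1% of its UMIs in macrophages, at 17.6 and 14.1 CPM in control 1 and 2 and 26.3 and 21.5 CPM in cKO 1 and 2 (log2 fold change 0.63, SE 0.45, adjusted p = 0.665). Neutrophil markers in the macrophage class were at a summed 65.6 and 83.5 CPM in control 1 and 2 and 158 and 140 CPM in cKO 1 and 2, with UMIs for 7 of 7 markers; the part of such cells in the results for that class was not tested.

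Over all kept nuclei, 33 members had enough counts to test and 10 were higher in the libraries labelled cKO (edgeR quasi-likelihood test, Benjamini-Hochberg adjusted p under 0.05), with none lower. Over all 19915 genes tested, 2.26% were called higher and 2.57% lower. The tested members had a median log2 fold change of 1.30 against 0.00 for all genes. These sums mix the makeup of a library with the level in each nucleus. More nuclei of a type and more RNA per nucleus cannot be told apart in them. Ccl3 and Cxcl5, among the 10, passed the filter on low counts only through the cKO libraries. The count and the median thus describe the members tested and are no support for a direction.

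Ccr2 stood at 11.3 and 11.9 CPM in control 1 and 2 and at 64.3 and 48.6 CPM in cKO 1 and 2 (log2 fold change 2.27, SE 0.21, adjusted p = 0.00787). The lymphatic ligand Ccl21a stood at 23.4 and 22.4 CPM against 69.1 and 60.7 CPM (log2 fold change 1.5, SE 0.17, adjusted p = 0.0105). Cxcl12 stood at 53.7 and 38.8 CPM against 106 and 96.2 CPM (log2 fold change 1.13, SE 0.20, adjusted p = 0.0288). For all 3 genes both cKO libraries lay above both controls, as they did for 26.2% of all genes tested over all nuclei. Both cKO libraries lay below both controls for 25.2%. Cx3cr1 (log2 fold change 1.35, adjusted p = 0.0246), Ccl3 (3.03, 0.0289), Ccl4 (2.24, 0.0353) and Cxcl5 (2.52, 0.0483) were also called. Ccl2 (log2 fold change 2.13, adjusted p = 0.0283) and Ccl7 (2.07, 0.0416) were among the 10 as well. With nuclei of up to 20% mitochondrial UMIs kept, the calls of Ccl2 (adjusted p = 0.0701), Ccl7 (0.0552) and Cxcl12 (0.0767) were lost. Ackr3, by contrast, stood at 101 and 87.3 CPM in control 1 and 2 and 84.8 and 81.6 CPM in cKO 1 and 2 (log2 fold change −0.18, SE 0.15, adjusted p = 0.563).

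**Figure D2:**
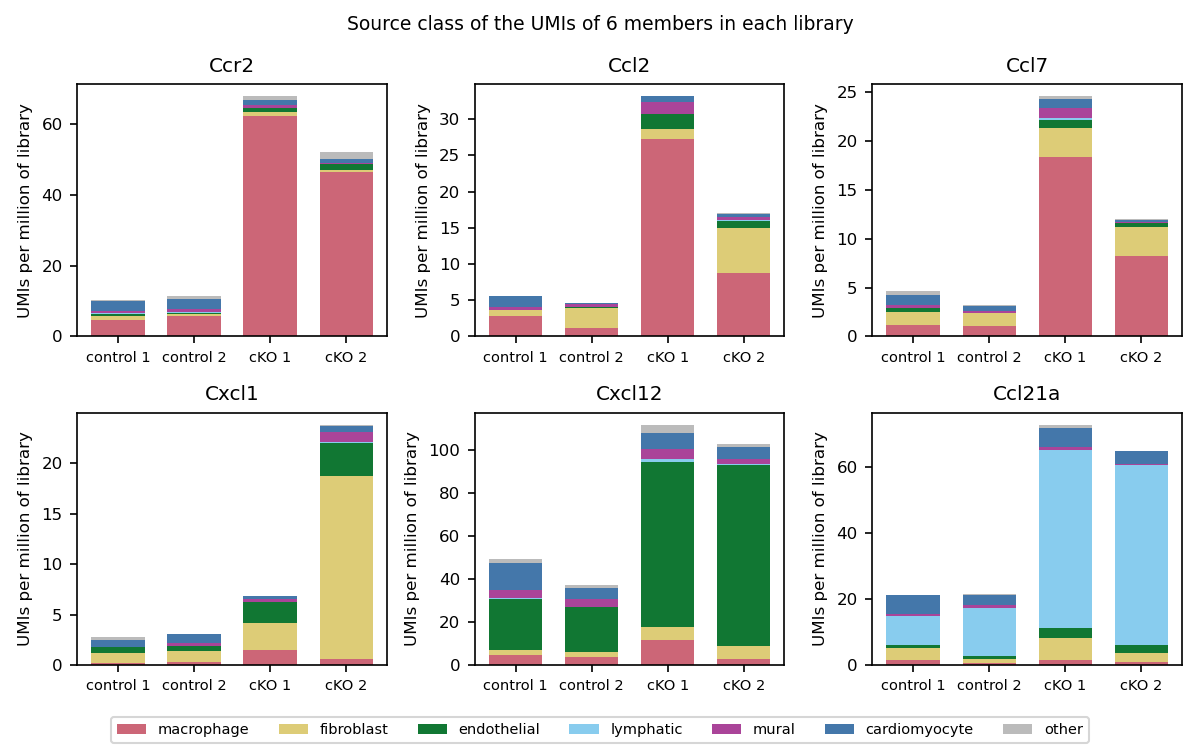
Levels of 6 members as CPM of the whole library (vertical axis, linear, a separate scale per gene), stacked by the class that gave them; the horizontal axis gives the 4 libraries. Ccr2 and Ccl7 came mainly from macrophages in both cKO libraries, Cxcl1 in cKO 2 from fibroblasts, Cxcl12 from endothelium, and Ccl21a from lymphatic nuclei.

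Of the 7 members called within a class, the RefSeq promoter table (assembly GRCm38.p6, 250 bases before to 50 after each start) holds a window for 4. They are printed to set the genes called in macrophages (Ccr2, Ccl3) beside those called in fibroblasts (Cxcl1, Cx3cl1). Capitals mark matches, on either strand, to GGNNNTTCC, a core shared by many kappa-B sites, to which NF-kB proteins are known to bind. Each sequence is written 5′ to 3′ on the gene's strand.
Ccr2, chr9:124101933-124102232, plus strand: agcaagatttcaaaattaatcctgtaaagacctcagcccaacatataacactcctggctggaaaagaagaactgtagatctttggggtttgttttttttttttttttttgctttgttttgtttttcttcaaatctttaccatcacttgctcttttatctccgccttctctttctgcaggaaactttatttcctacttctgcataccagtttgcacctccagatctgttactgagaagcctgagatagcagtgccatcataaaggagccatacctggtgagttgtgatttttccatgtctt
Ccl3, chr11:83649329-83649628, minus strand: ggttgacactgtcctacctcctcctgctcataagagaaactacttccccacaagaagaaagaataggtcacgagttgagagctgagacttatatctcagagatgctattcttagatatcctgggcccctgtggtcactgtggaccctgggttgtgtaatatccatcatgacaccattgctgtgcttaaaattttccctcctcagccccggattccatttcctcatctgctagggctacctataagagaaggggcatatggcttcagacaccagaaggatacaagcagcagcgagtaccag
Cxcl1, chr5:90890995-90891294, plus strand: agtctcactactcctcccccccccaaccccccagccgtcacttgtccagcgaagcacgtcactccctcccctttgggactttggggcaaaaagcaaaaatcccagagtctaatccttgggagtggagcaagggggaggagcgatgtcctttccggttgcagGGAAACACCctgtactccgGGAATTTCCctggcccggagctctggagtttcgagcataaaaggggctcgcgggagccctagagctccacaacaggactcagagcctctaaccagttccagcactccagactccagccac
Cx3cl1, chr8:94771930-94772229, plus strand: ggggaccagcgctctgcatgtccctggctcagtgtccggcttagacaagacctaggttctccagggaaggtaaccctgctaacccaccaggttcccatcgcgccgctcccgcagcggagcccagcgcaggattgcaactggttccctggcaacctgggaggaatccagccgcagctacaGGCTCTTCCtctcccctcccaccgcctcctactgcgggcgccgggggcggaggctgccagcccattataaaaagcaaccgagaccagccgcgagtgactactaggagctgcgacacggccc
Cxcl1 holds the motif 70 bases before its start, where the letters match on both strands, and again 89 bases before on the minus strand. Cx3cl1 holds it once, 71 bases before its start, and the Ccr2 and Ccl3 windows do not hold these letters. The motif occurs in 18.5% of all 32851 windows of this length in the table and in 18 of the 53 windows of the 46 members that have one (34.0%). These are letter matches and not measured binding.

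Ccr2, at chromosome 9, 124101950 to 124113557 on the plus strand (GENCODE M21, build mm10), was the only receptor called in macrophages. It stood at 91.1 CPM in control 1 and 101 CPM in control 2, from 31 and 100 UMIs, and at 495 CPM in cKO 1 and 514 CPM in cKO 2, from 603 and 861 UMIs. The groups did not overlap and the libraries of a group lay close together (log2 fold change 2.38, SE 0.29, adjusted p = 0.000835). The share of macrophages with a Ccr2 UMI was 6.75 and 9.78% in control 1 and 2 and 36.0 and 28.7% in cKO 1 and 2. Among nuclei of at least 1000 UMIs, each thinned to 1000, it was 6.98, 7.45, 27.6 and 23.8%. In cardiomyocytes, which should lack the gene, the thinned share was 0.359, 0.481, 0.186 and 0.342%. Shallower nuclei were left out of the thinned shares, which thus describe the deeper nuclei of each library. The median depth was 1169, 1570, 1789 and 1925 UMIs in macrophages and 3161 to 5293 UMIs in cardiomyocytes.

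In all, 19 members could be tested in macrophages and 4 were called higher, with none lower, against 0.794% of 11331 genes called higher and 0.485% called lower. Their median log2 fold change was 0.63 (0.02 for all genes), and 13 of the 19 were positive. Besides Ccr2 the 4 were Ccl7, Ccl2 and Ccl3, and Ccl2 and Ccl7 are ligands of Ccr2. Ccl3 passed the filter on low counts only through the cKO libraries, so the count and the median describe the members tested and are no support for a direction.

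Ccl7 (chromosome 11, 82045712 to 82047525, plus strand) stood at 23.5 and 18.2 CPM in control 1 and 2 and at 146 and 91.3 CPM in cKO 1 and 2 (log2 fold change 2.56, SE 0.38, adjusted p = 0.00328). Ccl2 (chromosome 11, 82035571 to 82037453, plus strand) stood at 55.8 and 21.2 CPM against 217 and 97.9 CPM (log2 fold change 2.22, SE 0.46, adjusted p = 0.0270). For both ligands cKO 1 was the highest library, and the groups did not overlap. In the macrophage class of control 1, control 2, cKO 1 and cKO 2, fibroblast markers (12 of 12 with UMIs) were at a summed 2235, 1889, 4363 and 1753 CPM, highest in cKO 1. Cardiomyocyte markers (12 of 12) were there at 12146, 7467, 6128 and 5704 CPM, and the part of either in the macrophage values was not tested. The call of Ccl2 was lost without control 2 (log2 fold change 1.49, adjusted p = 0.220), with library totals in place of TMM scaling (0.0534) and with the mitochondrial limit at 20% (0.153). Ccl2 overlaps Gm17268 on the opposite strand, and the sources used here do not say whether the counting used strand.

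Ccl3 (chromosome 11, 83647844 to 83649355, minus strand), a ligand of Ccr1, had 0 and 2 UMIs in the macrophages of control 1 and 2 and 46 and 53 UMIs in those of cKO 1 and 2 (adjusted p = 0.00509). Pooled over libraries the ratio was 23.3, with a 95% counting interval of 6.29 to 195, which covers counting error only. Its neighbor in function Ccl4 stood at 11.8 and 10.1 CPM against 37.0 and 34.0 CPM (log2 fold change 1.73, SE 0.45, adjusted p = 0.0818). Cxcl2, a neutrophil attractant, had no macrophage UMI in either control and 7 and 54 UMIs in cKO 1 and 2, at least 9.59-fold higher against a floor of 3 counts over the control group; it was not tested, and most of its UMIs were in cKO 2.

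**Figure D3:**
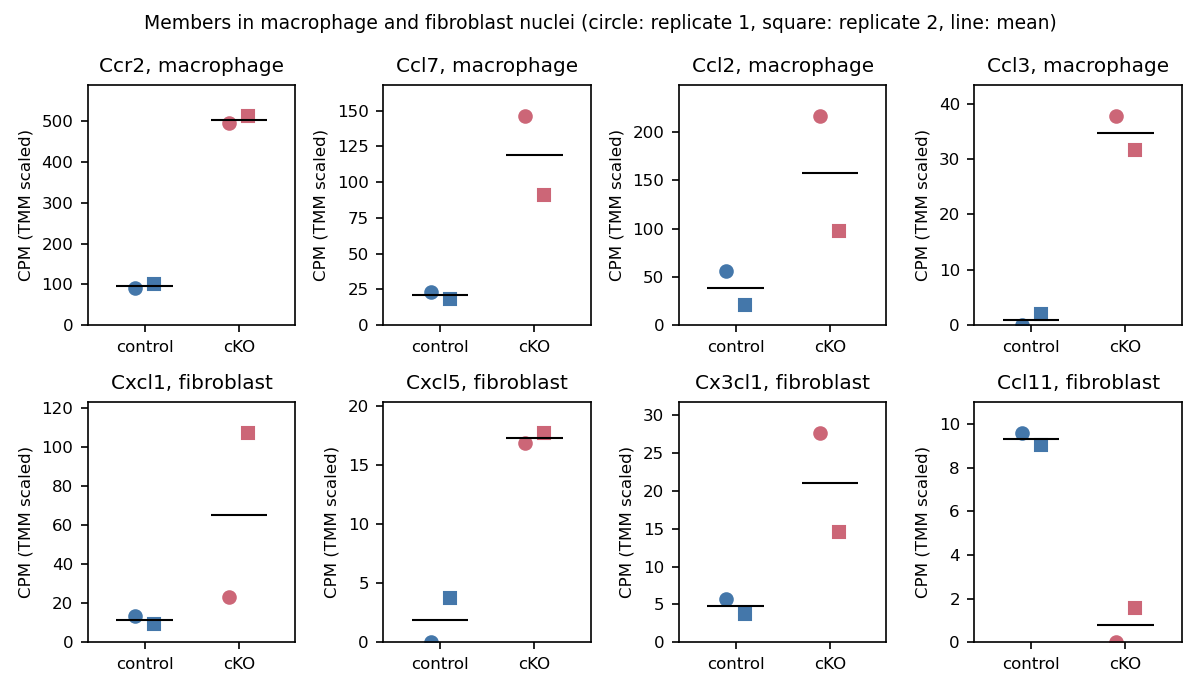
CPM (vertical axes, linear, TMM scaled, a separate scale per gene) of 4 members in macrophages and 4 in fibroblasts, by group; circles are replicate 1, squares replicate 2, and lines group means. Ccr2 in macrophages sits near 500 CPM in both cKO libraries and near 100 CPM in both controls, while Cxcl1 in fibroblasts rests on cKO 2 at 107 CPM.

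The other macrophage receptors did not pass the test. Ccr1 stood at 35.3 and 34.3 CPM in control 1 and 2 and at 50.9 and 65.6 CPM in cKO 1 and 2 (log2 fold change 0.75, SE 0.34, adjusted p = 0.382). Cx3cr1, the fractalkine receptor of resident and patrolling cells, stood at 64.6 and 57.5 CPM against 96.9 and 134 CPM (adjusted p = 0.185). In both genes the 2 cKO libraries lay above both controls. Such a separation without overlap was found for 22.5% of all genes tested in macrophages with cKO higher and for 19.8% with cKO lower.

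Ligands of macrophages other than Ccl2, Ccl3 and Ccl7 did not pass the test. Ccl6 stood at 173 and 184 CPM in control 1 and 2 and at 155 and 198 CPM in cKO 1 and 2 (log2 fold change −0.02, SE 0.27, adjusted p = 0.992), so the groups overlapped. Ccl9 stood at 82.3 and 64.6 CPM against 99.4 and 93.7 CPM, and Ccl12 at 52.9 and 58.5 CPM against 83.8 and 71.6 CPM; neither passed. Cxcl16, the membrane-bound ligand of Cxcr6, stood at 282 and 126 CPM against 122 and 93.7 CPM (log2 fold change −0.87, SE 0.35, adjusted p = 0.304), and its control 1 value lay far above the rest. Ccl24, an eosinophil attractant, stood at 23.5 and 17.2 CPM against 5.75 and 10.1 CPM (log2 fold change −1.24, SE 0.54, adjusted p = 0.366). For Cxcl16 and Ccl24 both cKO libraries lay below both controls. Of the 19 members tested in macrophages this held for 3, while 12 had both cKO libraries above both controls. Over all genes tested there the shares were 19.8% below and 22.5% above. These counts describe the members tested and are no support for a direction.

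**Figure D4:**
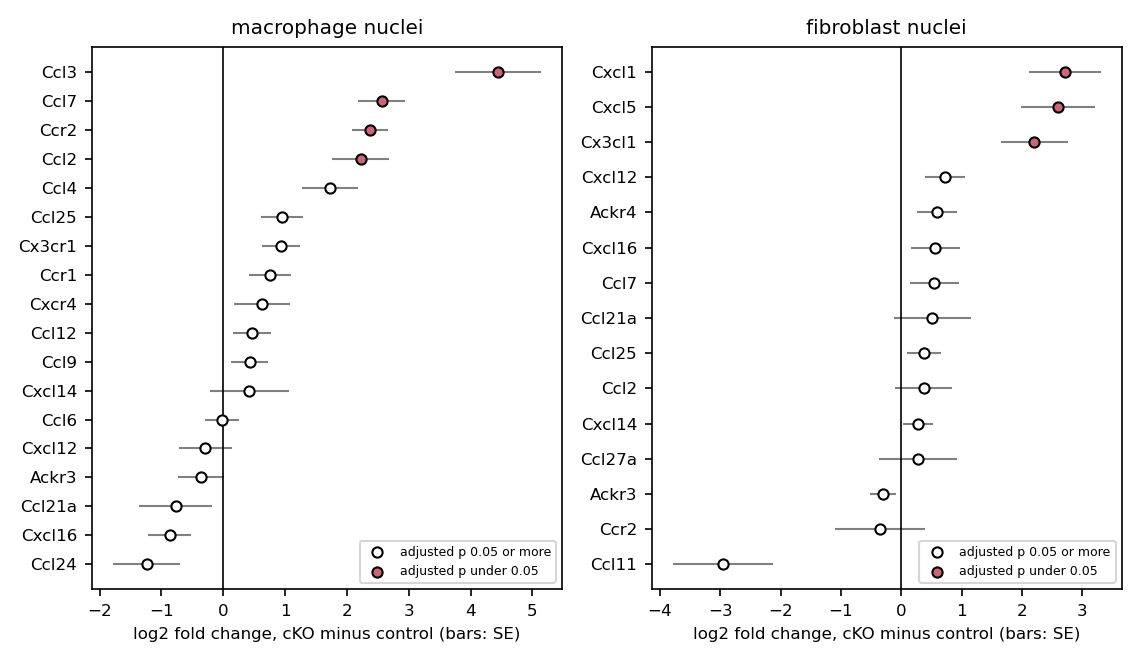
Log2 fold change, cKO minus control (horizontal axes, bars give SE), of 18 of the 19 members tested in macrophages and 15 of the 16 tested in fibroblasts (vertical axes); filled points have an adjusted p under 0.05. In macrophages Ccl3, Ccl7, Ccr2 and Ccl2 are filled, in fibroblasts Cxcl1, Cxcl5 and Cx3cl1, and Ccl11 has the lowest estimate (−2.96) without passing.

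The macrophage class was not the same mixture in both groups. A cluster led by Cd163 and F13a1 held 215 of 252 macrophages in control 1 and 524 of 583 in control 2, but 246 of 570 in cKO 1 and 417 of 811 in cKO 2; a cluster led by Spp1 and Gpnmb held 5, 1, 243 and 267. The Spp1 and Gpnmb cluster gave 1051 of the 1595 macrophage UMIs of Ccr2. Without that cluster 0 members were called (edgeR): Ccr2 had a log2 fold change of 1.37 (adjusted p = 0.0672), Ccl7 of 1.94 (0.0670) and Ccl2 of 1.46 (0.175), and Ccl3 had too few counts to test. Within the Cd163 and F13a1 cluster alone Ccr2 stood at 52.7 and 96.8 CPM in control 1 and 2 and at 318 and 207 CPM in cKO 1 and 2 (log2 fold change 1.68, adjusted p = 0.205), Ccl7 had a log2 fold change of 2.05 (0.294) and Ccl2 of 1.65 (0.422). In that cluster both cKO libraries lay above both controls for these 3 genes, and none was called. The 3 were picked because they were called in the class that holds these nuclei. No share of all genes is given for that cluster, so the separation is no separate support for a direction.

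Within macrophages the members also divided by cluster. Over all 4 libraries Ccl3 stood at 60.4 CPM in the Spp1 and Gpnmb cluster and 8.30 CPM in the Cd163 and F13a1 cluster. Ccl24 had 45 of its UMIs in the Cd163 and F13a1 cluster. Cx3cr1 was at 415 CPM in a small cluster of 52 nuclei led by Treml4, against 78.0 CPM in the Cd163 and F13a1 cluster and 137 CPM in the Spp1 and Gpnmb cluster. Cxcl2 in cKO 2 came mainly from the Cd163 and F13a1 cluster (45 of 54 UMIs). These values describe clusters built on other genes of the same nuclei and were not tested.

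Fibroblasts were the second class with called members. Of 16 members tested 3 were called higher in the libraries labelled cKO and none lower, against 2.32% of 11833 genes called higher and 1.41% lower, and DESeq2 called 0. The median log2 fold change of the 16 was 0.53 (0.01 for all genes). Cxcl5 and Cx3cl1, among the 3, passed the filter on low counts only through the cKO libraries, so this count and median are no support for a direction. As in macrophages, the clusters differed between groups: a cluster led by Scara5 held 385 of 441 fibroblasts in control 1 and 1083 of 1162 in control 2, and a cluster led by Postn and Cilp held 558 of 627 in cKO 1 and 1079 of 1371 in cKO 2.

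Cxcl1 (chromosome 5, 90891241 to 90893115, plus strand) stood at 13.4 and 9.59 CPM in control 1 and 2 and at 23.1 and 107 CPM in cKO 1 and 2 (log2 fold change 2.70, SE 0.60, adjusted p = 0.0199). Only cKO 2 was far above the controls, and 257 of its 338 fibroblast UMIs lay in the Il6 and Ptx3 cluster of 89 nuclei. Without cKO 2 the log2 fold change was 1.09 (adjusted p = 0.415), and without that cluster it was 1.21 (0.150). The share of fibroblasts with a Cxcl1 UMI was 1.59 and 1.38% in control 1 and 2 and 2.39 and 8.39% in cKO 1 and 2, against 0.253 to 0.639% of cardiomyocytes, at median depths of 1068 to 2080 UMIs in fibroblasts. Macrophage markers in the fibroblast class were at a summed 236 to 336 CPM. In the same cluster of cKO 2, Ccl2 had 89 UMIs, Ccl7 37, Cxcl5 22 and Cxcl2 18.

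Cxcl5 (chromosome 5, 90759360 to 90761624, plus strand), a ligand of Cxcr2 like Cxcl1, had 0 and 7 UMIs in the fibroblasts of control 1 and 2 and 19 and 56 in those of cKO 1 and 2. Both cKO libraries stood at a like level, 16.9 and 17.7 CPM, against 0 and 3.73 CPM (log2 fold change 2.60, SE 0.61, adjusted p = 0.0289). This call was lost without cKO 2 (log2 fold change 2.56, adjusted p = 0.113), without the Il6 and Ptx3 cluster (2.24, 0.0935) and with DESeq2 (2.73, 0.111), while the size of the difference stayed near that in the full data. In the Postn and Cilp cluster Cxcl5 had 0, 0, 18 and 32 UMIs in control 1, control 2, cKO 1 and cKO 2, where the controls held 56 and 78 nuclei.

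Cx3cl1 (chromosome 8, 94772009 to 94782427, plus strand) encodes fractalkine, the membrane-anchored ligand of Cx3cr1. It stood at 5.75 and 3.73 CPM in control 1 and 2 and at 27.6 and 14.5 CPM in cKO 1 and 2, from 3, 7, 31 and 46 UMIs (log2 fold change 2.20, SE 0.55, adjusted p = 0.0415). The groups did not overlap, and the call held without the Il6 and Ptx3 cluster (0.0412) but was lost without control 2 (log2 fold change 1.77, adjusted p = 0.320), without cKO 1 (1.76, 0.209) and with DESeq2 (2.21, 0.138). Its other main source, endothelium, stood at 4.10, 11.4, 12.6 and 10.4 CPM in control 1, control 2, cKO 1 and cKO 2 and did not pass (adjusted p = 0.894).

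Ccl11 was the member with the lowest estimate in fibroblasts. It had 5 and 17 UMIs in control 1 and 2 and 0 and 5 in cKO 1 and 2, or 9.58 and 9.06 CPM against 0 and 1.58 CPM (log2 fold change −2.96, SE 0.83, adjusted p = 0.0712). Without overlap of the groups, the test was not passed in the main setting. Ccl11 was called without the Il6 and Ptx3 cluster, without the filter on low counts, with the mitochondrial limit at 20% and with a replicate block. Fibroblast Ccl2 stood at 11.5 and 24.5 CPM against 11.6 and 36.4 CPM (adjusted p = 0.836) and Ccl7 at 17.2 and 12.8 CPM against 25.8 and 17.4 CPM (0.636), and neither passed. The stromal ligand Cxcl14 stood at 84.3, 60.8, 80.0 and 87.9 CPM in control 1, control 2, cKO 1 and cKO 2, and the scavenging receptor Ackr4 at 19.2, 35.7, 34.7 and 53.5 CPM; both overlapped between groups.

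In endothelial nuclei 0 of 10 tested members were called, with edgeR, with DESeq2 or without the Selp and Plaur cluster, against 1.42% of 11500 genes called at an adjusted p under 0.05. At an unadjusted p under 0.05, for which no share of all genes is given, Cxcl12, Cxcl9 and Cxcl1 were higher in the libraries labelled cKO. Cxcl9 and Cxcl1 reached the level of the filter on low counts in both cKO libraries but not in both controls. This list is thus not set against all genes and is no support for a direction. Cxcl12 (chromosome 6, 117168535 to 117181367, plus strand) stood at 334 and 241 CPM in control 1 and 2 and at 520.0 and 428 CPM in cKO 1 and 2, from 163, 358, 745 and 1568 UMIs (log2 fold change 0.74, SE 0.24, adjusted p = 0.161). Both cKO libraries lay above both controls, as they did for 21.7% of all genes tested in endothelial nuclei. The share with a Cxcl12 UMI was taken among nuclei of at least 1000 UMIs, each thinned to 1000, with shallower nuclei left out. In endothelial nuclei it was 15.9 and 14.0% in control 1 and 2 and 29.3 and 26.2% in cKO 1 and 2. In cardiomyocytes it was 0.882 to 1.72%. The median endothelial depth was 1036 to 1725 UMIs, and unthinned the endothelial shares were 20.5, 21.8, 38.5 and 35.2%. Cardiomyocyte markers in the endothelial class (12 of 12 with UMIs) stood at a summed 21549.7 and 15630.4 CPM in control 1 and 2 and at 11403 and 7240.2 CPM in cKO 1 and 2, and their part in the Cxcl12 values was not tested.

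Cxcl12 differed along the vessel tree as well. It stood at 373, 347, 725 and 542 CPM (control 1, control 2, cKO 1, cKO 2) in the capillary-type cluster led by Car4 and Rgcc, and at 1806, 500.3, 826 and 1113 CPM in a cluster led by Sema3g and Gja5, genes of arterial endothelium. In a cluster led by Npr3 and Nrg1, genes of endocardium, it stood at 34.1, 25.4, 98.6 and 72.8 CPM. The Sema3g and Gja5 cluster was thus highest in control 1 and overlapped between groups, while the capillary-type and Npr3 clusters had both cKO libraries above both controls.

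Endothelial UMIs of the interferon-inducible ligands Cxcl9 and Cxcl10 in cKO 2 lay mainly in 1 cluster. Endothelial Cxcl9 stood at 6.15 and 9.42 CPM in control 1 and 2 and at 11.9 and 25.4 CPM in cKO 1 and 2 (log2 fold change 1.22, SE 0.48, adjusted p = 0.282), and 71 of the 93 UMIs of cKO 2 lay in the Selp and Plaur cluster. Endothelial Cxcl10 had 0, 2, 5 and 46 UMIs, 45 of the 46 in that cluster, and was not tested. Macrophages gave nearly as many Cxcl10 UMIs (39.8% against 41.4% from endothelium), with 0, 9, 9 and 33 UMIs in control 1, control 2, cKO 1 and cKO 2. In barcodes above the mitochondrial limit Cxcl10 stood at 1.73, 1.80, 6.41 and 5.66 CPM in the same order, so there both cKO libraries were higher. Ackr1, the atypical receptor of venular endothelium, had 0 and 1 endothelial UMIs in control 1 and 2 and 9 and 13 in cKO 1 and 2.

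Lymphatic endothelial nuclei numbered 26 and 74 in control 1 and 2 and 71 and 132 in cKO 1 and 2, too few in control 1 for a test. Ccl21a (chromosome 4, 42772860 to 42773993, minus strand) stood there at 1426 and 1708 CPM in control 1 and 2 and at 3863 and 3140.2 CPM in cKO 1 and 2, from 61, 251, 521 and 1019 UMIs. The pooled ratio was 2.04, with a counting interval of 1.80 to 2.31. Both cKO libraries lay above both controls, while the share of lymphatic nuclei with a Ccl21a UMI was already 80.8 and 79.7% in the controls (83.1 and 90.2% in cKO 1 and 2). In cardiomyocytes that share was 1.64 to 2.86%, and the median lymphatic depth was 1415 to 2180.0 UMIs. The decoy receptor Ackr2, known from lymphatic endothelium, stood at 70.1 and 34.0 CPM against 133 and 136 CPM, from 3, 5, 18 and 44 UMIs. Ccl21a has near-identical copies (Ccl21b, Ccl21d, Ccl21e and Ccl21f among the members) between which reads may be split, so its level is uncertain. Ccr7, its receptor, had 0 and 3 UMIs in control 1 and 2 and 6 and 20 in cKO 1 and 2 over all nuclei.

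Cardiomyocytes and mural nuclei held no called member. Of 15 members tested in cardiomyocytes 0 were called and 0 had an unadjusted p under 0.05 (edgeR; DESeq2 also called 0), against 2.91% of 15418 genes called. The cardiomyocyte clusters differed between groups too: a cluster led by Esr1 held 149 and 207 nuclei in control 1 and 2 and 629 and 709 in cKO 1 and 2, and a cluster led by Gdf15 and Nppa held 32, 32, 241 and 389. The 2 largest clusters held 783 and 410 nuclei in control 1, 1085 and 1105 in control 2, 112 and 143 in cKO 1 and 133 and 257 in cKO 2. Ackr3 (chromosome 1, 90203980 to 90216751, plus strand), the main member here, stood at 92.2 and 88.6 CPM in control 1 and 2 and at 91.3 and 88.4 CPM in cKO 1 and 2 (log2 fold change −0.01, SE 0.14, adjusted p = 0.992). All 4 libraries lay within a few CPM of each other. Cardiomyocyte Ccl25 stood at 41.8, 50.5, 42.6 and 51.0 CPM, but the gene overlaps Elavl1 on the opposite strand, as Ccl27a overlaps Il11ra1, so these low and even levels are uncertain. In mural nuclei 0 of 3 tested members (Cxcl12, Ackr3 and Ccl25) were called, none at an unadjusted p under 0.05 and none with DESeq2, against 0.151% of 8596 genes.

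Whether the cKO effect differed between classes was tested for the 7 class-called members over all 10 pairs of the 5 tested classes. The Ccr2 effect was larger in macrophages than in cardiomyocytes by 3.20 on the log2 scale (SE 0.40, adjusted p = 1.081e-05), and this held without each library in turn; 2.24% of 14558 genes were called in that pair. Cardiomyocytes serve above as the background for Ccr2, with 20, 51, 14 and 22 UMIs (4.02, 4.68, 2.58 and 2.59 CPM) in control 1, control 2, cKO 1 and cKO 2. The value thus sets macrophages against a background level and is not a difference between 2 expressing classes. It was also larger in macrophages than in fibroblasts (2.70, SE 0.63, adjusted p = 0.0248, background 1.13%) and smaller in mural nuclei than in macrophages (−3.04, SE 0.65, adjusted p = 0.0340, background 0.302%). Fibroblasts held 8 to 12 Ccr2 UMIs per library and mural nuclei 4 to 16, so these too are near-background levels. Those 2 calls were each lost without control 1, control 2 or cKO 2. The difference against fibroblasts was then 1.95, 3.97 and 1.81, and that of mural nuclei minus macrophages −2.98, −3.13 and −2.07. The Cxcl1 effect was larger in fibroblasts than in cardiomyocytes (3.13, SE 0.80, adjusted p = 0.02, background 3.56%), again against few cardiomyocyte UMIs (5, 16, 3 and 11). That call was lost without control 1 (3.42), control 2 (2.44) or cKO 2 (2.33). For Ccr2 in macrophages against endothelium the difference was 2.05 (adjusted p = 0.145). For Ccl7 in macrophages it was 2.58 against cardiomyocytes (0.0657) and 1.97 against fibroblasts (0.0691), so those 3 differences were not established.

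Genes that act with chemokines were examined in 6 lists over all nuclei, where 2.26% of all genes were called higher and 2.57% lower. As with the members, these sums mix the makeup of a library with the level in each nucleus. The calls and medians of the lists thus cannot be read as a change within a cell type. Of 18 tested genes of migration signalling downstream of the receptors 5 were higher in the libraries labelled cKO (among them Fgr, Itgam, Pik3r5 and Vav1; median log2 fold change of the list 0.88) and none lower. Of 21 tested genes of NF-kB and cytokine induction 3 were higher (Nfkbiz, Tnf and Tnfaip3; median 0.63), and of 14 genes that present or cleave chemokines 3 were higher (Mmp14, Sdc3 and Sdc4; median 0.38). Of 8 genes by which endothelium captures leukocytes 2 were higher (Icam1 and Selplg; median 1.01). None of these was lower. Of 14 genes of receptor coupling and desensitisation 0 were called (edgeR, median 0.43). At an unadjusted p under 0.05 (edgeR) 5 of them were higher and 0 lower. No share of all genes is given at that threshold, so the 5 are not set against all genes. Of 6 chemokine-like genes under other symbols 0 were called, and 0 at an unadjusted p under 0.05 (median 0.19).

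Within classes the same lists gave single genes. In macrophages, whose clusters differed between groups as given above, Tnf, a cytokine that induces chemokines, was higher (log2 fold change 2.43, SE 0.54, adjusted p = 0.0383). It stood at 5.88 and 5.05 CPM in control 1 and 2 and at 31.2 and 26.9 CPM in cKO 1 and 2. Tnf passed the filter on low counts only through the cKO libraries, so its call is no support for a direction. Fgr, a Src-family kinase of myeloid cells, was also higher in macrophages (log2 fold change 2.42, adjusted p = 0.0094). In fibroblasts Nfkbiz, an NF-kB cofactor, stood at 59.4 and 46.4 CPM against 124 and 119 CPM (log2 fold change 1.24, SE 0.24, adjusted p = 0.0081); Zfp36, which destabilizes cytokine mRNAs, Ptk2b and the protease gene Mmp14 were also higher. In cardiomyocytes, whose clusters differed between groups as given above, Sdc4, a heparan sulfate proteoglycan, stood at 3.01 and 2.94 CPM against 12.2 and 12.0 CPM (2.02, 0.00748). In each of these genes both cKO libraries lay above both controls. Such a separation was found for 22.5% of all genes tested in macrophages, 22.5% in fibroblasts and 22.3% in cardiomyocytes. In endothelial nuclei 1 of the 6 tested genes of leukocyte capture was called higher and 0 lower (edgeR). There 0.322% of 11500 genes were called higher.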

How the data were processed

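Nuclei from 4 heart libraries (2 control, 2 cKO) had been stained for a nuclear pore protein, sorted and captured on BD Rhapsody, per the labels' protocols. The authors deposited whole-number UMI counts per gene and barcode for each library, with mm10 as the genome build (submitters' processing notes). The sources used here name no aligner, annotation or strand setting. No column of the files was left unused.

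Kept barcodes had 300 or more genes, 500 or more UMIs and up to 5% mitochondrial UMIs. The top 0.5% by UMIs were dropped, and Scrublet scored doublets (scanpy 1.11.5). Where its automatic cutoff marked under 0.5% of barcodes (control 1, control 2 and cKO 1), the top 6% by score were removed. Nuclei were clustered (leidenalg 0.10.2, resolution 1, 27 clusters) on 2000 variable genes without the family, and clusters were named when at least 3 markers of a type led; 1 cluster stayed unnamed. UMIs were summed per library and class and tested with edgeR 4.0.16 (quasi-likelihood test, TMM scaling, filterByExpr, Benjamini-Hochberg adjustment over all genes tested, threshold 0.05) in R 4.3.3, for classes with at least 50 nuclei in every library. CPM use TMM-scaled library sizes, except in single clusters, cell type markers and the checks of Pkp2 and Esr1, where they use the plain UMI total. Differences between classes were fitted as interaction terms over all 5 classes. The fit was tested on simulated data. DESeq2 1.42.0, other scalings, filters and clusterings, and leaving out each library were the alternatives.

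The 2 libraries of a group are pools of different hearts and differed beyond sampling noise (chi-square per degree of freedom 17.8 for control and 22.6 for cKO), so they were counted separately. An exact permutation test of 2 against 2 libraries cannot go below a two-sided p of 0.333 and was not used. Intervals are 95% and cover counting error only. Results for 2 genes, 1 of them a member, are not reported here, though counts over members and lists include them. The members and all gene lists were chosen with earlier results of these data known. Named genes were the called members, the 4 members of highest mean CPM in a class, and their ligands or receptors with at least 30 UMIs; Cxcl2, Cxcl9, Cxcl10, Ccl11, Ccl24, Ackr1, Ackr2 and the members named by cluster were chosen after their values were seen, as were the alternatives that leave out a cluster.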

Additional observations from a re-analysis of the deposited data

Results flagged for a closer look

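The cKO effect on 2 members differed between classes by a test of the difference itself (edgeR interaction term, adjusted over all genes). For Ccr2 the log2 effect in macrophages exceeded that in cardiomyocytes by 3.20 (adjusted p = 1.081e-05) and that in fibroblasts by 2.70 (adjusted p = 0.0248), and the effect in mural nuclei minus that in macrophages was −3.04 (adjusted p = 0.0340). For Cxcl1 the effect in fibroblasts exceeded that in cardiomyocytes by 3.13 (adjusted p = 0.02). The Cxcl1 difference and the latter 2 Ccr2 differences were each lost when control 1, control 2 or cKO 2 was left out. Their adjusted p without a library ranged from 0.0830 to 0.678 among the lost calls. The comparison classes were near background: Ccr2 had 14 to 51 UMIs per library in cardiomyocytes, 8 to 12 in fibroblasts and 4 to 16 in mural nuclei, and Cxcl1 had 3 to 16 in cardiomyocytes. These are thus not differences between 2 expressing classes.

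A second set of values comes from the 21097 barcodes above the mitochondrial limit, which entered no main comparison; those of up to 20% mitochondrial UMIs entered only the alternative with that limit. Of the 12 members called in any class or over all nuclei, 11 stood higher in both cKO libraries than in both controls there. These barcodes were not assigned to classes and the values were not tested. The 12 were picked because they were called higher in kept nuclei of the same libraries. No share of all genes is given for these barcodes, so the count is no separate support for a direction. Ccr2 stood at 17.1 and 14.7 CPM in control 1 and 2 and at 81.2 and 65.6 CPM in cKO 1 and 2, a pooled ratio of 4.64. The pooled ratio of cKO over control was 3.94 for Ccl2, 4.00 for Ccl7, 7.28 for Ccl3 and 3.25 for Ccl4. It was 11.45 for Cxcl5, 3.72 for Cxcl1 and 2.73 for Cx3cl1, and 2.90 for the receptor Cx3cr1. For Ccl21a it was 2.20. Cxcl12 was the exception, at 111 and 101 CPM in control 1 and 2 and 158 and 111 CPM in cKO 1 and 2, a ratio of 1.23.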

How the results depend on the processing

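With 2 libraries per group, every call rests on few values. Over the single-member results no alternative reversed a direction. The count of called members in macrophages (4) was 7 without the filter on low counts, and 0 without the Spp1 and Gpnmb cluster or in the Cd163 and F13a1 cluster alone, 2 alternatives chosen after the data were seen; the smaller samples in those fits are part of their construction. The count in fibroblasts (3) was 0 with DESeq2. Without the filter the count was 1 in endothelium (0 with it), 23 over all nuclei (10 with it) and 4 for members that differed between classes (2 with it). In mural nuclei it was 2 with the mitochondrial limit at 20% (0 otherwise). Leaving out 1 library at a time, with the lone library of its group assumed to vary like the other group, gave 0 to 1 called members in cardiomyocytes, 0 to 2 in endothelium, 2 to 4 in fibroblasts, 3 to 8 in macrophages (8 without cKO 1), 14 to 16 over all nuclei, and 1 to 3 that differed between classes. The libraries of the groups share only the numbers 1 and 2; same-numbered libraries had deviations that correlated at 0.193 to 0.603 across genes, and with a replicate block the counts were 2 in cardiomyocytes, 2 in endothelium, 5 in fibroblasts, 9 in macrophages and 29 over all nuclei. DESeq2 gave no adjusted p for Ccl3 in macrophages. The cause of these shifts was not tested. Depth limits the 24 members with 1 to 29 UMIs and every member with fewer than about 30 UMIs in a class.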
